A study of Mus musculus with 8 samples.

Results

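The variable (V) segments of the T cell receptor alpha and beta chains were followed in T cells of the mouse colon. Members were all symbols of the deposited gene list that start with Trav or Trbv and a number, whatever their level. This gave 163 genes of the 31053 symbols, 35 Trbv and 128 Trav. All 163 were found by gene identifier, under the same name, in the GENCODE M21 annotation of GRCm38, the assembly that mm10 denotes. The annotation types 22 of the Trbv and 108 of the Trav members as V genes and the other 13 and 20 as V pseudogenes.

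Droplet single-cell RNA sequencing with unique molecular identifiers (UMIs, counts of original RNA molecules) was done on 8 libraries of colonic lamina propria cells enriched for CD4 cells with a magnetic isolation kit. All mice were C57BL/6, 10 to 12 weeks old, and kept free of specific pathogens. They were wildtype or carried a substitution of a single amino acid, and the latter are called mutant. The sample titles name the substitution S203A, followed by KI, while the series design text names S182A. Which number holds is not settled here. They drank plain water until day 10, or 2% DSS (dextran sulfate sodium, a chemical that damages the lining of the colon and so brings on colitis) for 7 days followed by 3 days of water. Each of the 4 groups (wildtype untreated, mutant untreated, wildtype DSS, mutant DSS) held 2 libraries, described as independent biological replicates. The study set DSS against no treatment in wildtype mice and mutant against wildtype mice within each treatment. These comparisons share libraries, so their values are given side by side. Which animals or how many animals a library holds, beyond a number in its title, and in which cells the substitution is present, are not given in the sources used here.

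Each T cell builds its receptor by joining 1 V segment to shorter segments and a constant segment in each of 2 loci. The beta chain comes from the Trb locus and the alpha chain from the Tra locus, and the V segment supplies much of the surface that touches antigen and the presenting molecule. Regulatory T cells, marked by the transcription factor Foxp3, and Th17 cells, which make interleukin 17A (Il17a), both fill the lamina propria and both respond to gut microbes. A 3' library reads the end of the transcript that lies opposite to the V segment, so V genes give few UMIs.

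The authors' list of kept cells held 27420 of 100673 barcodes, all with at least 1 Cd4 UMI. Of these, 20737 cells in 9 clusters carried the T cell genes (Cd3d, Cd3e, Cd3g, Cd2, Lck, Lat) at 60% or more of the highest cluster and are called T cells here, a threshold set after the clusters had been seen. They numbered 1779 to 3750 per library, with 6179797 to 14948412 UMIs in sum and a median of 1943 to 2888 UMIs per cell. Libraries shared 88 barcodes among kept cells, 55 among T cells and 1176 among all barcodes. In T cells the summed CD8 markers stood at 2.89 to 6.19 CPM (counts scaled to the same total in each library) in untreated and 3.55 to 4.74 in DSS libraries.

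V genes gave 1813 Trbv and 1811 Trav UMIs in T cells. A Trbv UMI was seen in 1616 T cells (7.79%), a Trav UMI in 1512 (7.29%) and both in 172 (0.829%). For every 100 UMIs of the beta constant genes Trbc1 and Trbc2 there were 1.89 Trbv UMIs, and for every 100 of the alpha constant gene Trac there were 7.27 Trav UMIs. As a background, 0.733% of the cells of a macrophage cluster led by Apoe and C1qa held a Trbv UMI, at 1.66 CPM and a median of 4344 UMIs per cell. That share was the lowest among the clusters not called T cells. The others held 2.86% to 13.5% cells with a Trbv UMI, at 3.90 to 22.1 CPM and median depths of 3237 to 12820 UMIs. The highest of these values for Trbv came from a cluster of 52 cells led by Ccl21a and Lyve1, on 9 Trbv UMIs. The 9 T cell clusters held 5.67 to 15% such cells and 23.2 to 41.8 CPM.

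The 5 most used Trbv members (Trbv2, Trbv12-2, Trbv19, Trbv13-2 and Trbv3), the near copies Trbv12-1 and Trbv13-1, and Trbv31 (described with the level after DSS) are shown by the last 60 bases of their coding segment, because these hold the letters that tell near copies apart. Sequences are from GENCODE M21 transcripts on GRCm38, 5′ to 3′, with the codon of the conserved cysteine that opens the junction and the next bases (TGTGC) in capitals.
Trbv2 (chr6:41047936-41047995, plus strand): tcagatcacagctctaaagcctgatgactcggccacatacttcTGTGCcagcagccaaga
Trbv12-2 (chr6:41119305-41119364, plus strand): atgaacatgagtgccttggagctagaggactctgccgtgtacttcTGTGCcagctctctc
Trbv12-1 (chr6:41114008-41114067, plus strand): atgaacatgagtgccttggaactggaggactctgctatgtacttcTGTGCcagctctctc
Trbv19 (chr6:41178989-41179048, plus strand): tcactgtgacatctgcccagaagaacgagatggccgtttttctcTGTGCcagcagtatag
Trbv13-2 (chr6:41121773-41121832, plus strand): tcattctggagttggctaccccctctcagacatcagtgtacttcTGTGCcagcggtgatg
Trbv13-1 (chr6:41116409-41116468, plus strand): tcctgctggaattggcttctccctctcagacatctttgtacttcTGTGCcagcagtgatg
Trbv3 (chr6:41048769-41048828, plus strand): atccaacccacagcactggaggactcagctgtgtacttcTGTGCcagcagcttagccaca
Trbv31 (chr6:41557693-41557752, minus strand): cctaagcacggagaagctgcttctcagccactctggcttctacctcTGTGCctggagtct
Trbv12-1 and Trbv12-2 differ at 4 of these 60 bases (93.3% identity). Every 91-base stretch of each of the 35 Trbv members occurs in no other member, so a read of that length within the segment can be placed. Trbv31 lies beyond Trbc1 on the opposite strand, while the other members printed lie before the constant genes.

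Usage is the share of a locus' V UMIs that 1 member takes in a library. Whether the members are captured equally was not tested, so usage need not equal the share of cells that use a member. Trbv2 took 14.9% ± 4.08 (SD, n = 8 libraries) of Trbv UMIs, from 8.84% to 19.3%. Trbv12-2 took 14% ± 3.34, from 9.71% to 20.5%. These 2 members did not differ beyond their spread. Trbv19 took 10.2% ± 1.5 and Trbv13-2 took 10.0% ± 3.87, with ranges of 7.14% to 11.7% and 3.99% to 15.4%. Trbv19 was thus the steadier of the pair, and they changed places when UMIs were divided by coding length, which left Trbv2 and Trbv12-2 in front. Trbv3 (6.31% ± 2.74), Trbv1 (5.56% ± 2.30), Trbv13-1 (5.25% ± 0.886), Trbv26 (4.89% ± 2.20), Trbv16 (4.54% ± 1.37) and Trbv20 (4.52% ± 1.58) followed, each within the spread of the next. The 5 leading Trbv members held 55% and the 10 leading members 79.9% of the UMIs.

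Trbv12-1, which lies before Trbv12-2 on the same strand, took 1.16% ± 0.699 (22 UMIs, n = 8), against 254 UMIs of Trbv12-2. Within the Trbv13 family, Trbv13-1 took 5.25% and Trbv13-3, not printed, 2.98% of Trbv UMIs, against 10.0% ± 3.87 for Trbv13-2. All 22 Trbv members annotated as genes were detected in T cells, 16 of the members in every library. Of the 13 Trbv pseudogenes 1 was detected, and it held 5 UMIs (0.276%).

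**Figure D1:**
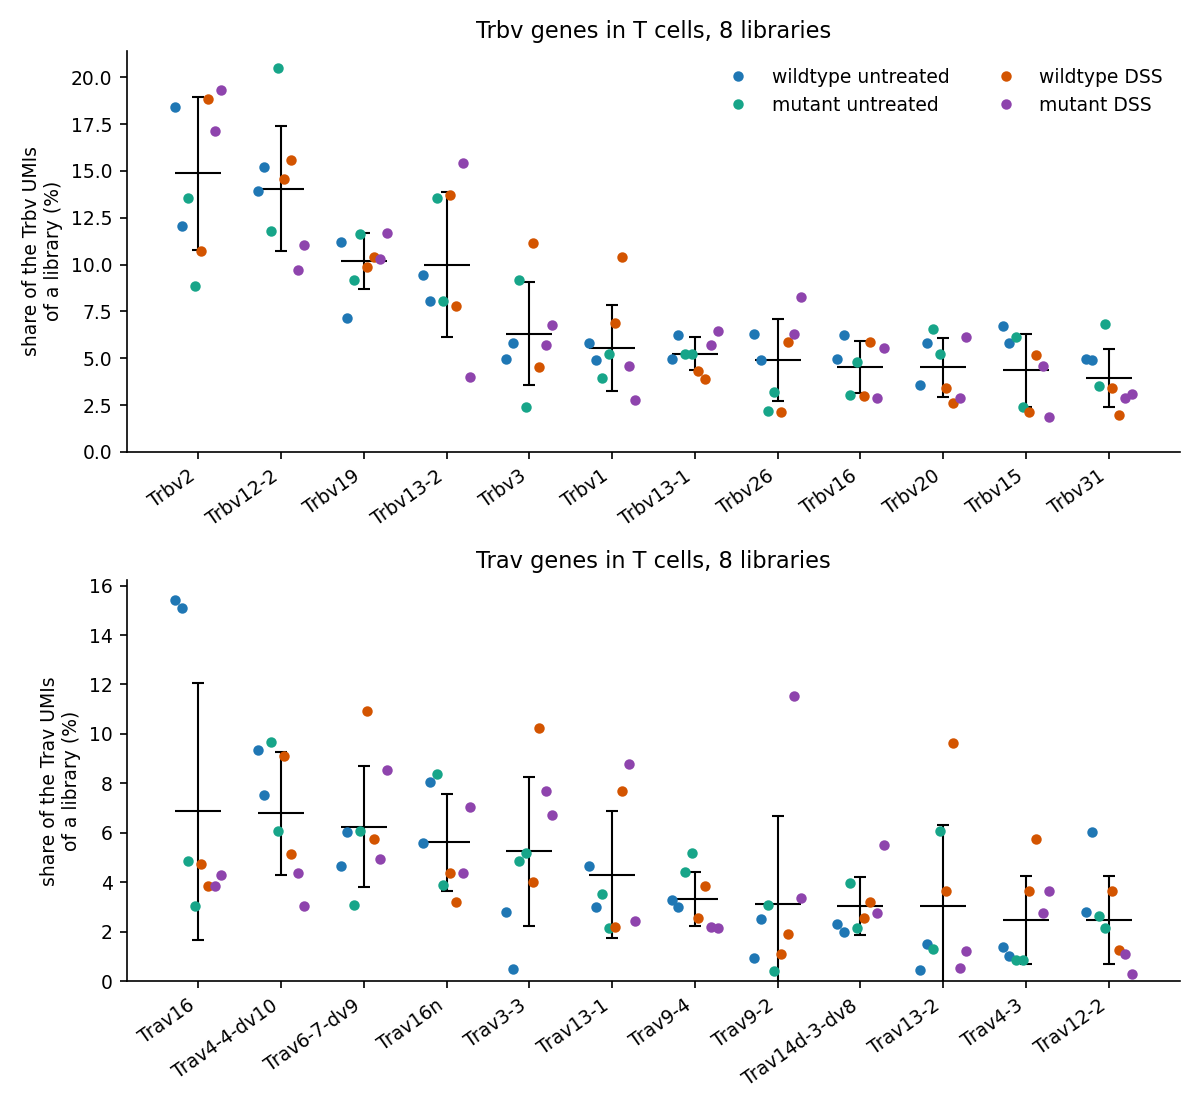
Share of Trbv UMIs (upper panel) and Trav UMIs (lower panel) in percent for the 12 members of highest mean share in each locus. Points are the 8 libraries, coloured by group, bars the mean and SD. Trbv2 and Trbv12-2 lead the beta locus, and the 2 untreated wildtype points of Trav16 (15.4% and 15.1%) stand above its other 6 (3.03% to 4.85%).

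The Tra locus was read more broadly. Of 128 Trav members, 77 were detected in T cells, 68 annotated as genes and 9 as pseudogenes, and 23 were seen in every library. The 5 leading members held 30.9% and the 10 leading members 47% of Trav UMIs, and pseudogenes held 2.93%. The locus carries repeated blocks, and names with d or n mark members of the repeats. The 55 members without such a letter held 76% of Trav UMIs, the 39 d members 9.61% and the 34 n members 14.4%. The copies differ in how well reads can be placed. The median share of 91-base stretches found in no other member was 90.9% for members without a letter, 0.405% for d members and 1.14% for n members. In all, 38 Trav members had no such stretch and together gave 1 UMI. The levels of d and n copies and of their partners are therefore uncertain, since reads that match several members cannot be placed.

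Position in the locus is given as distance upstream of Trac (chr14:54220521-54224206, plus strand). The 19 members between 400 and 600 kb held 43% of Trav UMIs (33% to 49.8% over libraries). The 20 members between 600 and 800 kb held 25.2%. From 200 to 400 kb, nearest to Trac, 6 members held 2.93%. The 23 members from 1200 to 1400 kb held 0.552% with 3 members detected, and their median share of distinct 91-base stretches was 0. The nearest members were therefore not the most used, and the emptiest interval was also the one in which reads could least be placed. Whether the position itself moves the share was not tested.

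**Figure D2:**
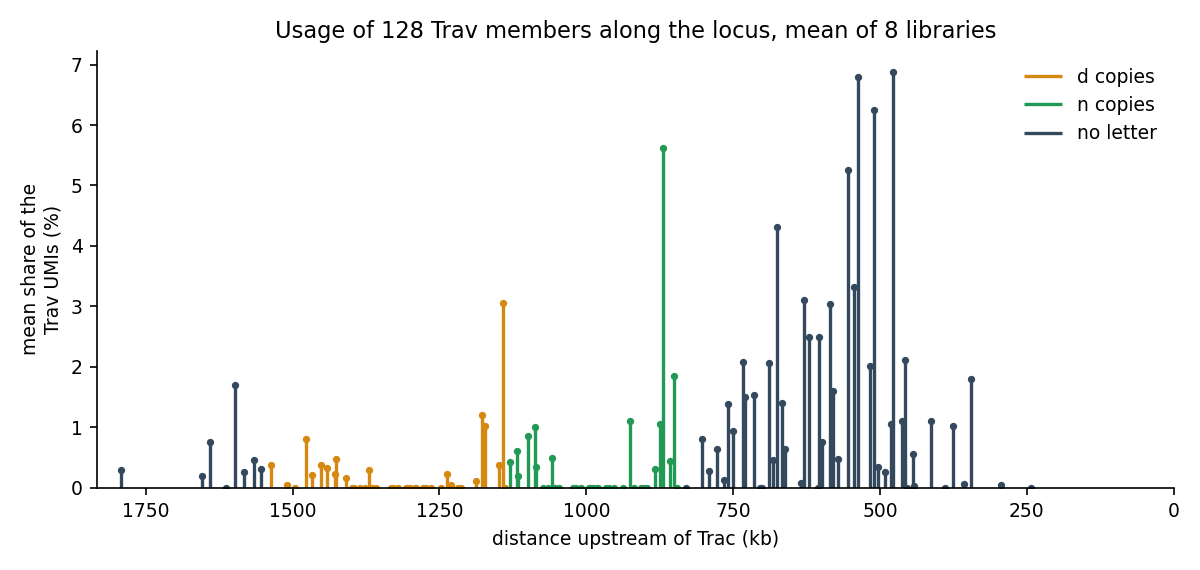
Mean share of Trav UMIs over 8 libraries in percent (vertical axis) of each Trav member against its distance upstream of Trac in kb (horizontal axis), coloured by d copies, n copies and members without a letter. The members between 400 and 600 kb hold 43% of the UMIs and those between 1200 and 1400 kb hold 0.552%.

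Trav16 had the highest mean share of Trav UMIs (6.88% against 6.79% for Trav4-4-dv10), a place that rests on the 2 untreated wildtype libraries. The 3 Trav16 copies are printed over 80 bases near the end of the coding segment, because they show how little separates them. Capitals mark the bases at which any of the copies differ.
Trav16 (chr14:53743626-53743705, plus strand): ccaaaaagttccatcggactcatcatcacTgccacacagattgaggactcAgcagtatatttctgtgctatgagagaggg
Trav16n (chr14:53351542-53351621, plus strand): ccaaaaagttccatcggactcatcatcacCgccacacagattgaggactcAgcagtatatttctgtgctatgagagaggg
Trav16d-dv11 (chr14:53047742-53047821, plus strand): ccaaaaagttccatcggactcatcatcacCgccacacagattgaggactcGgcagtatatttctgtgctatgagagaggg
Trav16n differs from Trav16 at 1 of the 80 bases (98.8% identity) and Trav16d-dv11 at 2 (97.5%). Over their whole length, 77.9%, 65.2% and 58.6% of 91-base stretches belong to Trav16, Trav16n and Trav16d-dv11 alone, so part of their reads can be split.

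Trav16 took 6.88% ± 5.19 of Trav UMIs (SD, n = 8). It stood at 15.4% and 15.1% in wildtype untreated replicates 1 and 2, at 4.85% and 3.03% in the mutant untreated replicates, at 4.73% and 3.85% in the wildtype DSS replicates and at 3.85% and 4.28% in the mutant DSS replicates. Both untreated wildtype libraries lay above all the others. They rest on 33 and 30 UMIs, against 6 to 14 in the other 6 libraries. Of those, 28 and 24 UMIs were in T cells with no Foxp3 UMI and fewer than 2 Il17a UMIs. In these cells Trav16 took 17.5% (exact 95% interval 12% to 24.3%) and 16.9% (11.1% to 24.1%) of Trav UMIs. The 28 and 24 UMIs came from 23 and 21 cells, so that most of the cells gave 1 UMI. All intervals cover counting error only.

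The other leading Trav members followed. Trav4-4-dv10 took 6.79% ± 2.5, Trav6-7-dv9 6.25% ± 2.44, Trav16n 5.61% ± 1.98 and Trav3-3 5.25% ± 3.01 (n = 8 each). Trav13-1 (4.31% ± 2.58), Trav9-4 (3.33% ± 1.09), Trav9-2 (3.11% ± 3.56), Trav14d-3-dv8 (3.06% ± 1.17) and Trav13-2 (3.05% ± 3.25) completed the 10 leading members. Trav9-2 and Trav13-2 had an SD as large as their mean. Trav9-2 reached 11.5% in mutant DSS replicate 1 and 0.433% to 3.36% elsewhere, and Trav13-2 reached 9.62% in wildtype DSS replicate 2 and 6.06% in mutant untreated replicate 2.

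The libraries resembled each other about as much across groups as within them. Over the 35 Trbv members, Pearson's r of the shares of 2 libraries had a median of 0.853 for the 4 pairs of the same group, 0.893 for the 8 pairs of the same treatment and different genotype, and 0.861 for the 16 pairs of different treatment. Over 23 Trav families the medians were 0.816, 0.768 and 0.803. Points of such a correlation are genes of the same library, which are not independent. The 12 Trbv members not detected in T cells enter every pair with a share of 0, which can raise r in all pairs. The effective number of Trbv members, the number of equally used genes that would give the same diversity, was 10.9 to 13.5. For Trav it was 23 in both untreated wildtype libraries and 27.4 to 40.4 in the others, with 130 to 288 cell and gene pairs behind each value.

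A few members were concentrated in 1 library. Of 44 members with at least 20 UMIs, 5 had a share at least 2 times that of the next library, against a median ratio of 1.27. Trav8-2, annotated as a pseudogene (chr14:53738375-53738838, plus strand), was chosen after its values had been seen. It had 22 of its 26 UMIs in mutant DSS replicate 2, in 13 cells of 4 clusters, and took 6.73% of Trav UMIs there and at most 0.467% elsewhere. In a wider set of T cell barcodes that does not require a Cd4 UMI it gave 34 UMIs in 19 cells of that library and 2 to 6 UMIs in each other library. A Trbv UMI was seen in 2 of the 19 cells and was of Trbv23 in both. Whether it came from the same T cell as the Trav8-2 UMI was not tested. Trav9-2 gave 21 UMIs in 19 cells of mutant DSS replicate 1, of which 10 were Il17a-positive. Trbv17 (4.42% in mutant untreated replicate 2), Trav5-1 (5.61% in wildtype untreated replicate 1) and Trav5-4 (6.49% in mutant untreated replicate 2) were the other 3, also named after their values had been seen.

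V usage was then compared between classes of T cells. Foxp3-positive cells (at least 1 Foxp3 UMI, 3094 cells), Il17a-positive cells (at least 2 Il17a UMIs, 3330) and all others (13955) were summed per library, and 358 cells positive for both were left out. The others thus include cells with 1 Il17a UMI and any cells whose Foxp3 RNA gave no UMI. Trbv UMIs numbered 282, 325 and 1143 and Trav UMIs 295, 314 and 1114 in these classes. Trbv2 and Trbv12-2 had the highest mean shares of the beta chain in each class. In edgeR's quasi-likelihood test with the library as a block, fitted to 9968 genes with V genes scaled to their locus, 4 members passed the filter on low counts (Trbv2, Trbv12-2, Trbv13-2, Trbv19). None of the 4 was called at an adjusted p of 0.05 between Foxp3-positive and other cells, where 40.1% of all genes were called, between Il17a-positive and other cells (22.2%) or between Il17a-positive and Foxp3-positive cells (32.6%). At an unadjusted p of 0.05 the counts were 0, 1 and 1. DESeq2 called none of the 4, against 33.6%, 19.2% and 28.8% of all genes. With so few V UMIs per class, these shares do not show that V usage varied less than other genes did.

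Markers of other cell types moved between these classes too. All 6 macrophage markers were called lower in Foxp3-positive than in other cells, and their summed level was 64.6 to 194 CPM in Foxp3-positive, 61.7 to 230 in Il17a-positive and 71.3 to 305 in other cells. The 18 gamma-delta receptor genes summed to 2.09 to 16.9, 27 to 59.2 and 11.8 to 32.6 CPM in the same order. Of 4 tested, 3 (Tcrg-C1, Tcrg-C2 and Trgv2) were called lower in Foxp3-positive than in other cells and higher in Il17a-positive than in Foxp3-positive cells, while Trdc was not called. The part of these markers in the V usage and V level of the classes was not tested.

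Trbv2 took 16.7% ± 6.61 of Trbv UMIs in Foxp3-positive, 19.5% ± 9.18 in Il17a-positive and 13.4% ± 4.68 in other cells (SD, n = 8). Its log2 difference between Il17a-positive and other cells was 0.53 (SE 0.26, edgeR adjusted p = 0.144). It was 0.33 without mutant untreated replicate 1 (edgeR adjusted p = 0.454) and 0.72, and called, without mutant DSS replicate 1 (edgeR adjusted p = 0.0497). Trbv13-2 took 8.03% ± 6.67, 14% ± 6.73 and 10% ± 3.72 in the same order. It was higher in Il17a-positive than in Foxp3-positive cells in 7 of 8 libraries, by 0.84 on the log2 scale (SE 0.40, edgeR adjusted p = 0.107). The difference did not pass the test. On the CPM scale, where 32.6% of all genes were called, it was 1.16 (edgeR adjusted p = 0.0173).

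Trbv3 did not pass the filter on low counts in this comparison. Its share in Foxp3-positive cells was 12.1% ± 3.99 (SD, n = 8), from 7.5% to 20%, on 31 UMIs in all. In Il17a-positive cells it was 3.16% ± 3.88 and at 0 in 4 libraries, and in other cells 5.71% ± 2.11. The share in Foxp3-positive cells exceeded that in other cells in 8 of 8 libraries, by 6.34 percentage points ± 3.89, and that in Il17a-positive cells in 8 of 8, by 8.89 percentage points ± 3.73. In the wider set of barcodes described next, Foxp3-positive cells stood above other cells in 6 of 8 libraries (9.98% ± 4.13 against 6.63% ± 1.13), and Trbv3 was not called in that comparison. Without the filter, the log2 difference between Il17a-positive and Foxp3-positive cells was -1.76 (SE 0.53, edgeR adjusted p = 0.00706, where 16.6% of all genes were called). With Il17a-positive cells defined by 1 or more UMIs, Trbv3 was higher in Foxp3-positive than in other cells by 0.94 (edgeR adjusted p = 0.0381, with 38.2% of all genes called). In that setting it differed by -1.99 between Il17a-positive and Foxp3-positive cells (edgeR adjusted p = 0.00185). This difference was also called with wildtype DSS replicate 2 (-1.69), mutant DSS replicate 1 (-1.96) or mutant DSS replicate 2 (-1.76) left out.

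**Figure D3:**
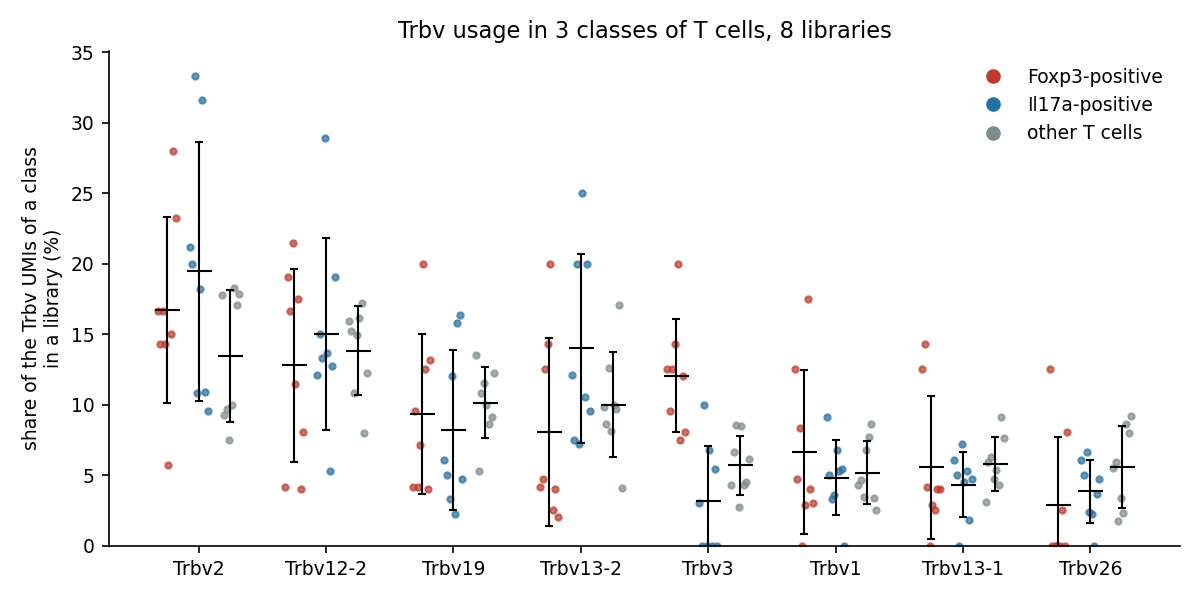
Share of Trbv UMIs in percent for 8 Trbv members in Foxp3-positive, Il17a-positive and other T cells. Points are libraries, bars the mean and SD over 8 libraries, drawn no lower than 0. Trbv3 has its highest mean in Foxp3-positive cells (12.1%) and its lowest in Il17a-positive cells (3.16%), and Trbv13-2 the reverse (8.03% and 14%).

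A wider set of 46074 T cell barcodes (at least 400 genes, under 20% mitochondrial UMIs, at least 2 Cd3 UMIs, no CD8 gene) was added after the first values had been seen and includes the cells above that meet its limits. Gamma-delta T cells were not excluded from this set, and whether they gave part of its Trav UMIs was not tested. With 19 members tested, 3 were called between Foxp3-positive and other cells, against 37.8% of all genes. Trbv1 took 9.19% ± 4.30 against 5.39% ± 1.15 (log2 0.72, SE 0.28, edgeR adjusted p = 0.048, higher in 6 of 8 libraries). Trav16n took 8.71% ± 3.71 against 5.36% ± 1.31 (0.65, SE 0.25, edgeR adjusted p = 0.0474, higher in 7 of 8). Both were higher in Foxp3-positive cells, and Trav6-7-dv9 was lower. Trav6-7-dv9 took 3.12% ± 2.27 against 6.88% ± 1.64 (-1.0, SE 0.34, edgeR adjusted p = 0.0257, lower in 7 of 8).

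In the same set Trav9-2 was called between Il17a-positive and other cells, with 8.63% ± 9.92 against 2.69% ± 2.79 of Trav UMIs (log2 1.57, SE 0.51, edgeR adjusted p = 0.0236, higher in 7 of 8 libraries), where 28.8% of all genes were called. Its share in Il17a-positive cells ran from 0 to 26.5%. Between Il17a-positive and Foxp3-positive cells 2 members were called, against 41.7% of all genes. Trbv3 took 4.76% ± 3.29 against 9.98% ± 4.13 (-1.03, SE 0.36, edgeR adjusted p = 0.0231) and Trav16n 4.55% ± 2.37 against 8.71% ± 3.71 (-0.94, SE 0.32, edgeR adjusted p = 0.0223), each lower in 7 of 8 libraries. The called share of the 19 members was below that of all genes in each of the 3 comparisons. These members rest on few UMIs, 43 and 37 for Trbv1 in Foxp3-positive and Il17a-positive cells. A lower called share therefore does not show that V usage varied less between classes than other genes did.

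Shares in single libraries were set against the median of the other libraries of the class, for libraries with at least 50 UMIs of the locus in the class. In Il17a-positive cells of mutant DSS replicate 1, Trav9-2 took 18.3% of Trav UMIs (11 of 60, exact 95% interval 9.52% to 30.4%, median of the other libraries 1.30%). In Il17a-positive cells of mutant untreated replicate 2, Trbv12-2 took 28.9% of Trbv UMIs (24 of 83 in 22 cells, 19.5% to 39.9%, median of the others 13.3%). In the same cells Trav13-2 took 14.3% of Trav UMIs (11 of 77, 7.35% to 24.1%), close to the 13.2% (7 of 53) in wildtype DSS replicate 1. The replicates of the first 2 libraries differed in whether they shared the excess. Trav9-2 took 20% (4 of 20 UMIs) in mutant DSS replicate 2, while Trbv12-2 took 13.3% in mutant untreated replicate 1. In Foxp3-positive cells the largest excesses over the median of the other libraries, with the same minimum of 50 UMIs, were Trbv2 (23.2%, 23 of 99 UMIs) and Trbv26 (8.08%) in mutant DSS replicate 2 and Trav4-3 (8%, 4 of 50) in wildtype DSS replicate 1. Each of these 3 shares was exceeded in a library of fewer UMIs, Trbv2 by 28% (7 of 25) in mutant DSS replicate 1, Trbv26 by 12.5% (3 of 24) in wildtype untreated replicate 1 and Trav4-3 by 11.8% (4 of 34) in wildtype DSS replicate 2. In other cells, beside the Trav16 shares of the untreated wildtype libraries given above, Trbv2 took 18.3% (17 of 93) in wildtype DSS replicate 2, against at most 17.9% elsewhere.

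Usage was next compared between groups of mice, with 31 members passing the filter among 12279 genes. After DSS in wildtype mice no member was called by edgeR or DESeq2, where edgeR called 0.261% of all genes. After DSS in mutant mice none was called either, against 4.19% of all genes. In mutant against wildtype mice, untreated or after DSS, and in the interaction of DSS and genotype, edgeR called no gene at all (0%). DESeq2 called 1.65%, 4.69%, 0.171%, 0% and 0% of all genes in these 5 comparisons. At an unadjusted p of 0.05, edgeR had 4, 4, 1, 4 and 3 of the 31 members in these comparisons, and DESeq2 3, 0, 1, 2 and 1. Over all genes edgeR had 2101, 3049, 629, 216 and 467 at that level.

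Of the members, Trav16 had the smallest p after DSS in wildtype mice and between mutant and wildtype untreated mice. Its usage differed by -1.79 on the log2 scale after DSS in wildtype mice (SE 0.40, edgeR adjusted p = 0.0816) and by -1.94 between mutant and wildtype untreated mice (SE 0.40, edgeR adjusted p = 0.406). These comparisons share the 2 untreated wildtype libraries, which are high, so they are not separate evidence. With genes of low counts kept in, edgeR called both (adjusted p = 0.0054, with 4.41% of all genes called, and 0.00616, with 0.759%). In the wider set of barcodes the differences were -1.18 (edgeR adjusted p = 0.224) and -1.36 (edgeR adjusted p = 1). The interaction stood at 1.85 (edgeR adjusted p = 0.999).

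Trav4-3, a member not among the 10 leading, took 1.40%, 1.01%, 0.881% and 0.866% of Trav UMIs in the 4 untreated libraries and 3.64%, 5.77%, 2.75% and 3.67% in the 4 DSS libraries. The groups did not overlap. Its log2 difference was 1.86 in wildtype (edgeR adjusted p = 0.195) and 1.85 in mutant mice (edgeR adjusted p = 0.133), and neither passed the test. Trav13-2 stood at 0.467% and 1.51% in the wildtype untreated, 1.32% and 6.06% in the mutant untreated, 3.64% and 9.62% in the wildtype DSS and 0.549% and 1.22% in the mutant DSS libraries. It differed by 2.62 after DSS in wildtype mice and by -2.62 between mutant and wildtype mice after DSS, comparisons that share the wildtype DSS libraries (edgeR adjusted p = 0.201 and 1). Leaving out each library in turn gave 1.85 to 3.6 and -3.37 to -1.86, the smallest sizes without wildtype DSS replicate 2. Trav3-3 stood at 2.80% and 0.502% in untreated and at 4% and 10.3% in DSS-treated wildtype libraries, a difference of 1.95 (edgeR adjusted p = 0.205).

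In mutant mice, Trbv26 took 2.18% and 3.21% of Trbv UMIs before and 6.29% and 8.28% after DSS (log2 1.43, edgeR adjusted p = 0.133). In wildtype mice it took 6.28% and 4.91% before and 2.15% and 5.84% after, and the interaction was 2.0 (edgeR adjusted p = 0.999). Trav4-4-dv10 took 9.69% and 6.06% before and 4.40% and 3.06% after DSS in mutant mice (-1.11, edgeR adjusted p = 0.179). Trav9-4 differed by -1.13 there (edgeR adjusted p = 0.21). None of these passed the test.

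The summed V gene level relative to all UMIs of T cells was lower after DSS. In untreated libraries Trbv members summed to 36, 34.1, 37.1 and 37.6 CPM of the T cells' UMIs, and in DSS libraries to 22.3, 21.3, 24.4 and 21.8 CPM, in the order wildtype replicates 1 and 2, mutant replicates 1 and 2. Untreated and DSS libraries did not overlap. Within untreated mice the 2 mutant libraries lay just above the 2 wildtype ones, and after DSS the genotypes overlapped. The means were 36.2 ± 1.57 and 22.4 ± 1.36 (SD, n = 4 each), 38% lower after DSS. Trav members summed to 34.5, 30.3, 36.7 and 34.9 CPM in untreated and 26.3, 21.5, 25.3 and 21.9 CPM in DSS libraries, 30.3% lower in the mean and again without overlap. In a sum over cells, fewer cells of a type and less RNA per cell cannot be told apart.

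The constant genes moved less. Trbc1 and Trbc2 together were 15.8% lower (1634 ± 100 and 1376 ± 128 CPM) and Trac 5.49% lower (397 ± 35.4 and 376 ± 22.3 CPM). Against the constant genes, Trbv UMIs per 100 Trbc UMIs were 2.22 ± 0.115 in untreated and 1.64 ± 0.125 in DSS libraries, and Trav UMIs per 100 Trac UMIs 8.61 ± 0.69 and 6.35 ± 0.724. T cells with a Trbv UMI made up 10% ± 1.03 of T cells before and 6.29% ± 1.14 after DSS. With each cell thinned to 1000 UMIs, and 21 to 137 shallower cells per library left out, the shares were 3.43% ± 0.271 (3.13% to 3.78%) and 2.27% ± 0.295 (1.96% to 2.65%). The same thinned share for Trav was 3.64% ± 0.47 and 2.29% ± 0.347.

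The mean Trbv level was lower after DSS in each class of T cells. In Foxp3-positive cells Trbv members stood at 32 ± 1.81 CPM before and 19.3 ± 2.87 after DSS, in Il17a-positive cells at 35.3 ± 5.35 and 22.9 ± 3.65, and in other cells at 37 ± 2.04 and 24.2 ± 3.08 (SD, n = 4). None of the 3 classes overlapped between treatments on this measure. The Trav level did overlap in Foxp3-positive cells (18.3 to 38 CPM before, 17.8 to 24 after DSS) and in Il17a-positive cells (19.2 to 38.9 and 18 to 26.6 CPM). Trbv UMIs per 100 Trbc UMIs overlapped in Il17a-positive cells (1.77 to 2.58 and 1.56 to 2.37), and Trav UMIs per 100 Trac UMIs in all 3 classes (7.93 to 10.4 and 6.10 to 8.22 in other cells). The thinned share of cells with a Trbv UMI overlapped in Foxp3-positive (1.53% to 7.74% and 1.63% to 2.93%) and Il17a-positive cells (0.939% to 3.70% and 1.5% to 2.80%), and not in other cells (3.08% to 3.78% and 1.97% to 2.77%). All 9 T cell clusters had a lower mean after DSS, 7 of them without overlap, and per Trbc UMI 8 were lower, 4 without overlap. Most clusters not called T cells also had a lower mean. It was 8.14 and 4.09 CPM in the cluster led by Igfbp5 and 1.80 and 1.67 in the macrophage cluster, with overlap. Per 100 Trbc UMIs they stood at 1.51 and 0.956 and at 1.75 and 1.29. Some went the other way. The cluster led by Siglech rose from 0 to 7.38 CPM, on 2 Trbv UMIs. Per 100 Trbc UMIs the cluster led by Ptx3 stood at 1.58 and 1.65. Whether the fall is particular to T cells was not tested. In T cells without the proliferating and the stress-gene cluster the Trbv means were 36.4 ± 0.497 and 23.3 ± 0.757 CPM. In the wider set they were 26.5 ± 1.53 and 18.5 ± 1.85, and in those of its barcodes with no Cd4 UMI 26.2 and 18.4.

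**Figure D4:**
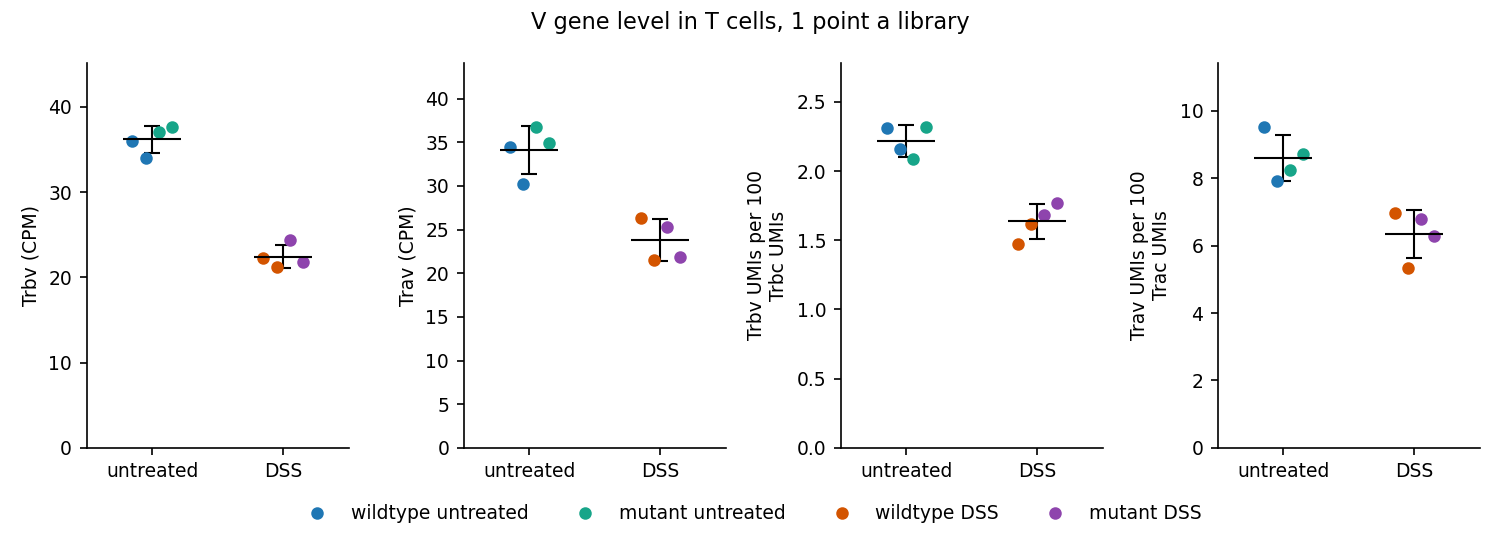
Summed Trbv level and Trav level in CPM of T cell UMIs and V UMIs per 100 UMIs of the constant genes, by group. Points are libraries, coloured by genotype and treatment, and bars the mean and SD of the 4 libraries of a treatment. The 4 untreated libraries lie at 34.1 to 37.6 CPM for Trbv and the 4 DSS libraries at 21.3 to 24.4 CPM.

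Other measures of the same libraries are given beside the V level. The median UMI count of T cells averaged 2374 in untreated and 2309 in DSS libraries, with overlapping ranges, and the median mitochondrial share 3.06% ± 0.18 and 3.33% ± 0.252. The 6 T cell markers summed to 2534 to 2843 CPM in untreated and 2084 to 2443 in DSS libraries. The 5 Treg markers summed to 1210 to 1359 and 1707 to 1867 CPM, the 3 Th1 markers to 256 to 362 and 170 to 209, and the 3 neutrophil markers to 0.152 to 1.13 and 2.97 to 11. The 4 genes listed for innate lymphoid cells (Kit, Gata3, Il7r, Ncr1) summed to 272 to 365 and 431 to 515 CPM, also without overlap. Only 1 of the 3 tested was called higher, so the sum does not speak for each gene. Over the T cell clusters this sum ran from 185 to 736 CPM, highest in the cluster led by Trat1. It therefore does not mark innate lymphoid cells alone. For comparison, in the fit described next 8.58% of all genes were called higher, and 16.2% had all DSS libraries above all untreated ones. The 6 macrophage markers summed to 69.2 to 144 and 79.7 to 265 CPM, with overlap. Within Foxp3-positive cells alone the Trbv level was 32 and 19.3 CPM, and the Trav level overlapped (18.3 to 38 and 17.8 to 24 CPM). The part of all these measures in the lower V level was not tested.

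Single members were tested on the CPM scale with 4 untreated against 4 DSS libraries, each genotype weighted equally, a fit added after the values had been seen. Of 31 members, 5 fell and none rose at an edgeR adjusted p of 0.05, against 15.9% of all genes called (7.3% lower, 8.58% higher). In all, 26 of the 31 lay below 0 with a median log2 difference of -0.70, while 47.9% of all genes lay below 0 with a median of 0.019. On the usage scale, with the V genes set against their own locus, the same fit called none of these 5 and 1 other member, Trav4-3, which was higher, against 15.8% of all genes. The median over the members was then 0.032. DESeq2 called 2 of the 5, Trbv12-2 and Trav16, against 11.2% of all genes. Leaving out wildtype untreated replicate 2 or wildtype DSS replicate 2 left no member called, leaving out wildtype untreated replicate 1 or mutant untreated replicate 2 left 1, and leaving out mutant untreated replicate 1 or mutant DSS replicate 2 left 2.

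Trbv12-2 stood at 5, 5.17, 4.37 and 7.70 CPM in untreated and 3.26, 3.31, 2.37 and 2.41 CPM in DSS libraries. The groups did not overlap, and the level fell by 1.04 on the log2 scale (SE 0.23, edgeR adjusted p = 0.0166). Trbv31, the member beyond the constant genes, stood at 1.77, 1.67, 1.29 and 2.57 CPM and then 0.766, 0.414, 0.696 and 0.669 CPM. It fell by 1.54 (SE 0.39, edgeR adjusted p = 0.0273), again without overlap. Trbv20 stood at 1.29 to 2.43 and 0.552 to 1.34 CPM, overlapping in 1 library of each group, and fell by 1.19 (SE 0.36, edgeR adjusted p = 0.0496). Of the most used beta members, Trbv2 had 6.61, 4.11, 5.02 and 3.32 CPM before and 2.40, 4, 4.18 and 4.21 CPM after DSS, ranges that overlap, and it was not called.

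Trav16 stood at 5.32, 4.56, 1.78 and 1.06 CPM in untreated and 1.25, 0.828, 0.975 and 0.937 CPM in DSS libraries. It fell by 1.44 (SE 0.32, edgeR adjusted p = 0.0162), with the untreated wildtype libraries far above the untreated mutant ones. Trav4-4-dv10 fell by 1.22 (SE 0.36, edgeR adjusted p = 0.0445), from 2.12 to 3.56 CPM before to 0.669 to 2.40 CPM after DSS. Trav4-3 was the 1 member whose 4 DSS libraries (0.696 to 1.24 CPM) all lay above the 4 untreated ones (0.302 to 0.484 CPM), a pattern that 16.2% of all genes showed. Its difference was 1.28 on the CPM scale (edgeR adjusted p = 0.0875), 1.86 on the usage scale (edgeR adjusted p = 0.0278) and -0.15 in the wider set of barcodes (edgeR adjusted p = 0.844). Conversely, 5 members had all DSS libraries below all untreated ones, against 7.58% of all genes.

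**Figure D5:**
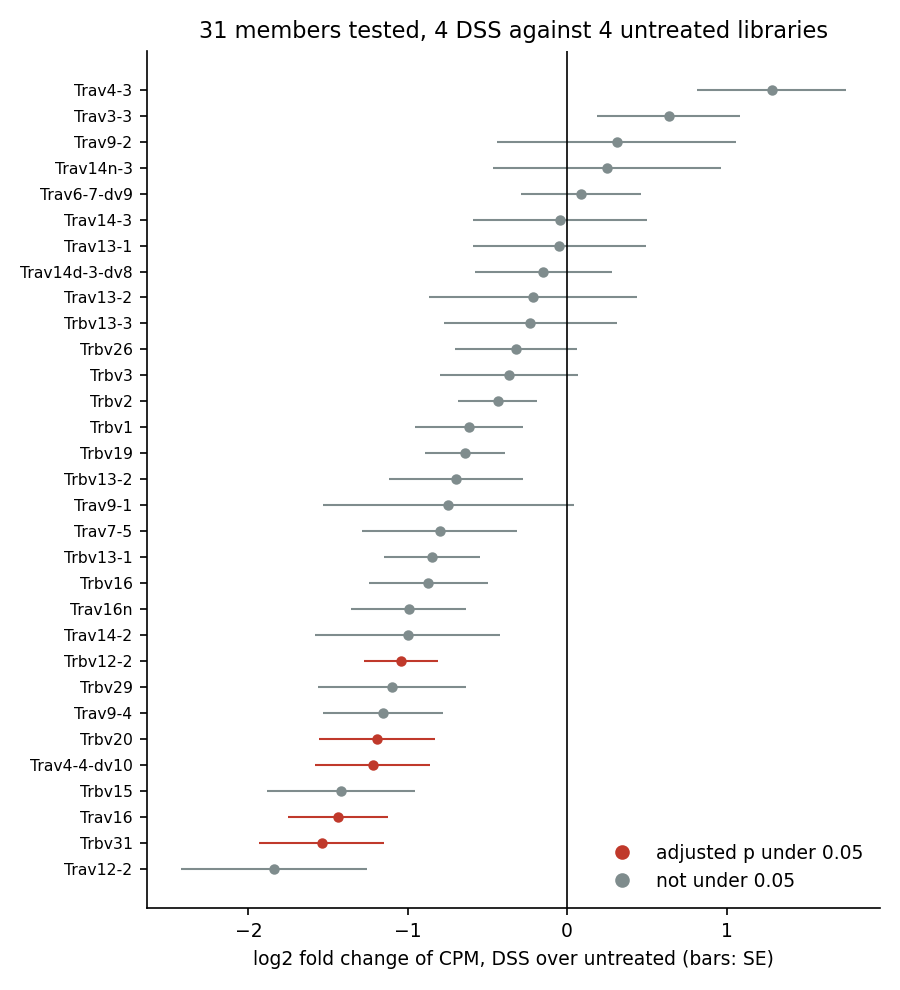
Log2 difference in CPM level, DSS against untreated over both genotypes, for the 31 members tested (points) with SE bars. Members called at an adjusted p of 0.05 are marked, and 26 of the 31 lie below 0.

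Other genes of the receptor pathway were read from the same fit. Of 26 listed genes of the receptor complex and its signalling, 23 were tested, 2 rose, 2 fell, and the median log2 difference was -0.08. That share of calls is near the 15.9% of all genes. Cd27, a costimulatory receptor, rose by 0.52 (edgeR adjusted p = 0.0176) and Trat1, a receptor-associated adaptor, by 0.53 (edgeR adjusted p = 0.0212). The constant gene Trbc1 fell by 0.36 (edgeR adjusted p = 0.0333) and Cd3g, a signalling chain of the complex, fell by 0.53 (edgeR adjusted p = 0.0254). Of 18 gamma-delta receptor genes 7 were tested and none was called. Their median was -0.76.

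The level was also compared between classes, with no test. Trbv members stood at 25.6 ± 7.18 CPM in Foxp3-positive, 29.1 ± 7.89 in Il17a-positive and 30.6 ± 7.27 in other T cells (SD, n = 8), and Foxp3-positive cells stood below other cells in 7 of 8 libraries. Trac, in contrast, was higher in Foxp3-positive than in other cells in 8 of 8 libraries (440 against 368 CPM). Trav UMIs per 100 Trac UMIs were 5.96 and 8.06, lower in 7 of 8 libraries. The median depth was 2963 UMIs in Foxp3-positive, 2676 in Il17a-positive and 2166 in other cells. Cells with a Trbv UMI made up 9.20%, 9.20% and 7.51% of these classes. With each cell thinned to 1000 UMIs, and 37, 72 and 488 shallower cells left out, the shares were 3.18% ± 2.08, 2.42% ± 1.10 and 2.88% ± 0.585. At equal depth the share was thus higher in Foxp3-positive than in other cells in 5 of 8 libraries, a direction opposite to that of the CPM, with means closer than their spread, so no order of the classes is read from these values.

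Invariant T cells join fixed alpha segments, Trav11 in natural killer T cells and Trav1 in mucosal-associated invariant T cells. Trav1 had 5 UMIs in T cells. Trav11 and Trav11d had 0, which by a floor of 3 counts in 20737 T cells allows up to 0.0145% of cells with a placed UMI, and Trav11n, annotated as a pseudogene, had 6 UMIs in 5 cells. Across all barcodes they had 23, 1, 0 and 20 UMIs. A stretch of 80 bases of each segment is printed because it shows which copy a read can name, with capitals at the bases that differ.
Trav11 and Trav11d: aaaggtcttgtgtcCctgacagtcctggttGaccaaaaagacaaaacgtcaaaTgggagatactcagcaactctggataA
Trav11n: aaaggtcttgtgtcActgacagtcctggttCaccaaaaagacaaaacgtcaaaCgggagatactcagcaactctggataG
Trav11d is wholly contained in Trav11, so a read within it names neither, while Trav11n differs at 8 bases over the segment (97.7% identity) and can be told from both. A count of 0 for Trav11 and Trav11d thus limits reads that could be placed, not cells that use the segment. Among 8 listed genes of invariant T cells, none rose and 2 fell after DSS, against 15.9% of all genes called (7.3% lower). Klrb1c fell by 1.2 (edgeR adjusted p = 0.0427) and Klrk1 fell by 0.74 (edgeR adjusted p = 0.0154). Of the whole list 4 of the 8 lay below 0 with a median of -0.072, and its summed level was 269 to 358 CPM in untreated and 331 to 414 CPM in DSS libraries.

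Chains could be paired in few cells. With exactly 1 Trbv and 1 Trav member, 151 T cells held 144 distinct pairs within a library. Of these, 5 pairs were seen in 2 or more cells and none in more than 3. Trbv2 with Trav9-4 was seen in 3 of 23 such cells of wildtype untreated replicate 1 and Trbv2 with Trav6-7-dv9 in 3 of 28 of mutant DSS replicate 2. All were in the class of other T cells, with no Foxp3 UMI and fewer than 2 Il17a UMIs. Trbv13-2 with Trav16 was seen in 2 of 13 cells of wildtype untreated replicate 2. No pair could be followed across groups at this depth. Whether both UMIs of a pair came from the same T cell was not tested. Among T cells with at least 2 Trbv UMIs, 69 of 171 held 2 or more Trbv members.

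Of T cells with at least 2 Trbv UMIs, 102 of 171 (59.6%, exact 95% interval 51.9% to 67.1%) held a single Trbv member. The share was 69% below the 90th percentile of UMIs per cell and 46.5% above it. For Trav, where cells can carry 2 rearranged alleles, 160 of 224 cells (71.4%, 65% to 77.3%) held a single member, 78.5% below and 57.3% above that percentile. The share of cells with several members was thus higher in the deeper cells for both chains. Whether such cells are droplets with more than 1 cell was not tested, and no doublet caller was run.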

How the data were processed

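The authors deposited UMI counts, a table of genes by barcodes for each library, made with Cell Ranger 3.1.0 on mm10, per the submitters' processing notes, which also name Seurat 4.0.1. How the kept cells were chosen is not given in the sources used here. Row symbols came from the deposited list, whose order matched 30468 of 30934 identifiers.

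Kept cells were clustered (scanpy 1.11.5, leidenalg 0.10.2, 2000 variable genes without V genes, 30 components, 15 neighbours, resolution 1) and no doublet caller was run. UMIs were summed per library, or per library and class. V genes were scaled to their locus total for usage and to the TMM library size for level, and were tested over all genes with edgeR 4.0.16 (quasi-likelihood, filterByExpr, Benjamini-Hochberg, threshold 0.05), with the library as a block between classes. DESeq2 1.42.0, other filters, scalings and cell sets were alternatives. With 2 libraries a group, p-values measure the spread between these libraries. The scripts were tested on simulated data.

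The members and lists were chosen with earlier results of these data known. Named members were drawn mainly from the following sets, and not each of them is named or given values in every comparison. The sets are the 10 Trbv and 10 Trav members of highest mean usage, called members and the 2 members of smallest p in each direction of a comparison. Added were Trav1, Trav11 and Trav11d, the 3 largest library excesses in each class, and the most frequent pairs. Sequences and positions are GENCODE M21 (GRCm38). Intervals are exact (Clopper-Pearson, 95%). Totals per library are in the report, and 1 other deposited table was not used here. The name of the mutated gene is not reported here.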

Additional observations from a re-analysis of the deposited data

How the results depend on the processing

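Of 155 usage counts recomputed with other settings, the wider set of barcodes included, 138 were 0. The count of called members rose from 0 as follows. Between Foxp3-positive and other cells it was 1 on the CPM scale (Trbv13-2, -0.88, with 40.1% of all genes called), 1 with Il17a-positive cells defined by 1 UMI (38.2%) and 3 in the wider set of barcodes (37.8%). Between Il17a-positive and other cells it was 1 in the wider set (28.8%). Between Il17a-positive and Foxp3-positive cells it was 1 on the CPM scale (32.6%), 1 with Il17a at 1 UMI (32.8%), 2 in the wider set (41.7%) and 3 without the filter on low counts (Trbv3, Trav9-2 and Trav10n, 16.6%). Without the filter it was 3 for DSS in wildtype (Trav16, Trav13-2, Trav3-3, with 4.41% of all genes called), 1 for mutant against wildtype untreated mice (Trav16, 0.759%) and 1 for the interaction (Trav13-2, 0.372%), and on the CPM scale 1 for DSS in mutant mice (Trbv12-2, -1.40, 4.23%). Leaving out each library in turn gave 0 to 1 in the 3 comparisons of classes and 0 in the 5 comparisons of groups. The fit without the replicate block (the library left out of the model) called 0 members in each comparison of classes. Between groups no paired analysis was possible because the labels give animal numbers that no groups share, and replicate 1 or 2 only names a library in accession order.

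For the level after DSS, with the share of all genes called in the same fit in parentheses, the count of called members, 5 lower of 31 tested (15.9%), was 1 on the usage scale (15.8%; Trav4-3, higher, not among the 5), 2 lower in DESeq2 (11.2%), 8 lower of 100 without the filter (14.3%), 1 lower of 34 with T cells defined by Cd3 UMIs (16%), 3 lower without cells that hold 2 or more Trbv members (15.8%), 2 lower of 59 in the wider set (18.3%; Trbv15 and Trav3-4, not among the 5) and 1 lower of 37 with barcodes outside the authors' list added (15.7%). Leaving out each library gave 0 to 6. The mean summed level, untreated minus DSS, was 13.7 CPM for Trbv and 10.3 for Trav. It was 8.01 and 7.31 in the wider set and 7.8 and 7.5 in barcodes with no Cd4 UMI, where Trbv per 100 Trbc UMIs differed by 0.397. Leaving out each library gave 13.3 to 14.4 CPM for Trbv, 9.45 to 11.6 for Trav, 0.525 to 0.625 per 100 Trbc and 1.93 to 2.48 per 100 Trac UMIs.

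Of 690 recomputed values of named members, 15 changed sign. Trbv19 between Foxp3-positive and other cells, at 0.01, was -0.39 on the CPM scale, -0.018 in DESeq2, -0.14 with T cells by Cd3 UMIs, -0.30 in the wider set, -0.11 with Foxp3 at 2 UMIs, -0.059 with Il17a at 1 UMI, and -0.21 to 0.15 when each library was left out (-0.04 without wildtype untreated replicate 2, -0.05 without wildtype DSS replicate 2 or mutant DSS replicate 2). Between Il17a-positive and Foxp3-positive cells it was 0.042 on the CPM scale and -0.63 to 0.13 when each library was left out. Trbv12-2 was 0.11 with Foxp3 at 2 UMIs and Trbv2 -0.065 on the CPM scale between Foxp3-positive and other cells, and the level of Trav4-3 after DSS was -0.15 in the wider set. The cause of these changes was not tested. Fewer UMIs enter when a library or a class of cells is left out, but not on the CPM scale, in DESeq2 or in the wider set. The 154 to 326 Trbv UMIs per library limit the precision.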
